A study of Mus musculus with 2 samples.

Results

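The regions described here are runs of KMT2D ChIP-seq peaks that lie close together on mouse chromosomes 1 to 19, X and Y. Each peak of the deposited list was reduced to its summit, the base with the highest signal. Neighbouring summits at most 12.5 kb apart were joined, and runs of 3 or more summits were kept and are called chains. Members were thus chosen by summit position in the peak list, from the same ChIP against input comparison that gave all values below. Of 3706 peaks on these chromosomes, 463 (12.5%) fell into 122 chains, 742 into 371 pairs, and 2501 stood alone. The data came from wild-type HT22 cells, an immortalised mouse hippocampal cell line, grown to 70% confluency and labelled as a wild-type clone. Both samples carried that genotype, with no treatment named: 1 library of chromatin precipitated with an antibody against KMT2D and 1 library of input chromatin. Cells without the SET domain of KMT2D, which the series also describes, are not analysed here. There was no replicate of either library, so no test was made and every interval covers counting error only. The number of reads in each library is not given in the sources used here.

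KMT2D is a large methyltransferase that places methyl groups on lysine 4 of histone H3, mainly the single methyl group found at enhancers. It works in a complex with WDR5, ASH2L, RBBP5 and the demethylase UTX, and is brought to chromatin by transcription factors. Groups of enhancers near each other are often found beside genes that give a cell its identity or that answer quickly to signals. Closeness of summits was the rule by which the chains were chosen, so it is not a result, and chains were not shown to be enhancers, since no histone mark was measured.

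Of the 122 chains, 19 with 110 peaks were set apart as repeat arrays or small RNA gene clusters and are described last. In 9 of them most summits lay where the input itself was high, with a background above 20 fragments. In the other 10 most summits lay within 500 bp of a tRNA, rRNA or snRNA gene, where 3.83% of all peaks lay. The remaining 103 chains held 353 peaks. Of these chains, 74 had 3 summits, 18 had 4, 9 had 5, 1 had 6 and 1 had 8. The widest gaps that still joined 2 summits were 12188 bp at Bloc1s1, 12280 bp at Thra, 12329 bp near Fam50b and 12344 bp near Azin1. Just beyond the limit stood gaps of 12593 bp near S100a10, 12595 bp near Tcte2, 12669 bp near Plcd3 and 12692 bp near Baalc.

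A chain summit outside arrays fell between 250 bases before and 50 after a transcription start at 14 starts of 13 genes, 2 of them of Bbc3. At 12 the summit lay before the start, and at the noncoding genes Lexis1 and Gm31125 it lay 31 and 17 bp after it. Windows of the 250 bases before the start were searched for motifs. The sequences below are from RefSeq on GRCm38.p6, the build also called mm10, written 5′ to 3′ on the strand of the gene. They are 5 of the 6 windows with an AP-1 motif (TGANTCA) or a cyclic AMP response element (CRE, TGACGTCA), chosen after the counts were seen because the shares of these motifs had the highest ratio to those in all windows. The window of Gm14321 is left out since its CRE is that of Gm32287. Capitals mark these motifs and the GC box GGGCGG, the TEAD motif GGAATG, the E-box CACGTG and CCAAT, on either strand, with overlaps joined.
Anxa2, chr9:69453433-69453682, plus strand: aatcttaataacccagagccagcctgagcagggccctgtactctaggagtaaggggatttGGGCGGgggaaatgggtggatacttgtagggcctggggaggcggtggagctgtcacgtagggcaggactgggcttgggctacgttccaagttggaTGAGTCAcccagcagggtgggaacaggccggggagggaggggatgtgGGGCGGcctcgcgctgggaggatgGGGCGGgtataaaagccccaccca
Tinagl1, chr4:130175123-130175372, minus strand: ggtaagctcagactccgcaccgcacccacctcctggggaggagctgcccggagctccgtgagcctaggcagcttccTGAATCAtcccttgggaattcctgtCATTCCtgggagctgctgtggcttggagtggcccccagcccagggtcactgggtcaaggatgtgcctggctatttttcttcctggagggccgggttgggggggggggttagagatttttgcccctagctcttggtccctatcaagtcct
Gm40491, chr12:86833764-86834013, minus strand: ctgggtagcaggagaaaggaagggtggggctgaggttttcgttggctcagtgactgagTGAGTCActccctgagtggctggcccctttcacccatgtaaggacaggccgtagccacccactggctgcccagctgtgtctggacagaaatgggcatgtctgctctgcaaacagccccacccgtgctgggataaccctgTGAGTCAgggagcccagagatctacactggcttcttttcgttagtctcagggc
Irf2bpl, chr12:86884815-86885064, minus strand: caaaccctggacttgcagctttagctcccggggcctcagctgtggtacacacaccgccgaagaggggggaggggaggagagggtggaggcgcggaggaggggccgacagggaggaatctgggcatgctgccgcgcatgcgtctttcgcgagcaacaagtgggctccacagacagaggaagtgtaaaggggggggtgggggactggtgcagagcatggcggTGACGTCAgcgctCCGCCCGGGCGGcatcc
Gm32287, chr2:167777415-167777664, minus strand: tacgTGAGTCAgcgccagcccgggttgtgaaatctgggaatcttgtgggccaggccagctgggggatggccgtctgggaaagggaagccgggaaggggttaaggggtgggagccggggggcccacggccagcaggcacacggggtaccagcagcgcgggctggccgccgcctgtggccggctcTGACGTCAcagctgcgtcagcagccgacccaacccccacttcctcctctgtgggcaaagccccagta

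In the Anxa2 window the centre of the AP-1 motif lay 5 bp from the KMT2D summit, in that of the long noncoding RNA (lncRNA) gene Gm40491 17 bp, and in that of Tinagl1 48 bp. The CRE shared by the divergent lncRNA genes Gm32287 and Gm14321 lay 9.5 bp from its summit, and the CRE of Irf2bpl 146.5 bp. In the Gm32287 window the AP-1 motif was 170 bp from the summit. AP-1 motifs were present in 4 of 14 windows (28.6%), against 8.19% of the 403 windows at starts with a KMT2D summit in no such chain and 6.75% of all 32850 windows. CRE motifs were present in 3 of 14 (21.4%), against 3.23% and 1.55%, but 2 of the 3 were the same site. GC boxes were in 57.1% of the 14, 62.3% of the 403 and 32.7% of all windows. The E-box was in 1 window, CCAAT in 4 and the TEAD motif in 2, while neither TTCNNNGAA nor the CArG box bound by SRF was in any. A median of 64.6% of bases were G or C in the 14 windows, against 65.2% and 52.4%. These counts describe letters in 14 windows and are not sites of factor binding.

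In place, the 353 chain peaks were more often between genes and less often at gene starts than the 3243 peaks in no chain. Summits within 2 kb of a protein-coding start made up 13.9% of chain peaks (49, Wilson 95% interval 10.7 to 17.9%), 28.7% of peaks in no chain (27.1 to 30.3%) and 26.8% of all peaks. Intergenic summits made up 54.1% (191 peaks, 48.9 to 59.2%), 39.6% (38.0 to 41.3%) and 42.0% in the same order. Gene bodies held 32.0% of chain peaks (113 peaks, 27.4 to 37.0%), 31.7% of the others and 31.2% of all. Start shares were 30.3% for single summits and 23.3% for summits in pairs, so pairs lay between singles and chains. At lncRNA starts within 500 bp, chain peaks numbered 16 (4.53%), close to the 5.23% of all peaks. Sharing a chain ties these peaks to 1 neighbourhood, and they are not independent of each other.

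Fold, the ratio of ChIP signal to background that the authors' peak caller gave at each summit, was slightly higher in chains outside arrays. With arrays included, the direction turned when the weaker peaks of the list were left out. Its median was 4.66 in chains (interval of the median 4.53 to 4.83) and 4.45 in peaks outside chains (4.38 to 4.52). Folds at or above 5.77, the 75th percentile of all peaks, were reached by 26.9% of chain peaks (95 peaks, 22.6 to 31.8%), 24.4% of peaks in no chain and 25% of all. Gene-start summits in chains had a median fold of 4.0 (3.61 to 4.52) and those elsewhere 3.61 (3.54 to 3.71). In gene bodies the medians were 4.66 (4.33 to 5.14) and 4.79 (4.70 to 4.90), and between genes 4.75 (4.54 to 5.12) and 4.82 (4.70 to 4.93). The intervals of the 2 medians therefore overlapped in each of the 3 places, and in gene bodies and between genes the chain median was the lower. Chains also held fewer of the low-fold gene-start peaks, and whether this moved the pooled medians was not tested. Among peaks with a −log10 q of 8.21 or more, the median of the list, the direction turned: over all chains, arrays included, the difference in median fold, chain minus other peaks, was 0.132 with all peaks and -0.525 with these. The same difference was not computed without arrays. In the high-background arrays 51 of 64 peaks reached this q, and the median fold of the 64 was 1.96.

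**Figure D1:**
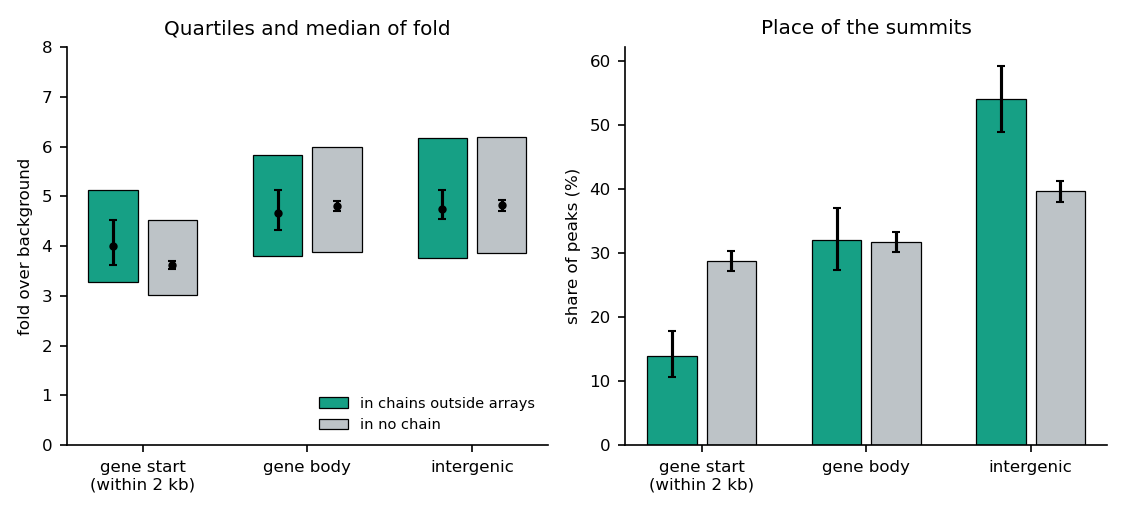
Left, fold over background by place of the summit: boxes span the 25th to 75th percentile, points are medians with 95% order-statistic intervals. Right, share of peaks in each place in percent with Wilson 95% intervals; chain peaks outside arrays (353, green) sit below peaks in no chain (3243, grey) at gene starts, 13.9% against 28.7%, and above them between genes, 54.1% against 39.6%.

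Chain peaks were slightly wider and stood on slightly more fragments. Median width was 323 bp (297 to 350) in chains and 292 bp (289 to 297) elsewhere. The number of ChIP fragments over the summit, solved from the deposited fold and p-value, had a median of 36 in chains (33 to 38) and 30 elsewhere (29 to 30). Background was 6.61 fragments in chains and 6.05 elsewhere, so it was higher beside the higher ChIP count. The median −log10 q was 10.2 against 7.84. Chain peaks outside arrays were 9.53% of all peaks and held 9.92% of the fragments above background summed over peaks.

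Chains had no single architecture. They spanned 1345 to 44077 bp with a median of 10382 bp, and the 250 gaps between their summits had a median of 3963.5 bp, with 30 gaps under 1 kb. In 44 chains every summit was intergenic, in 30 every summit lay inside 1 protein-coding gene, and in 30 at least 1 summit was within 2 kb of a start. The highest fold of a chain was 1.05 to 4.97 times its lowest (median 1.85), and 2 or more times the next highest in 7 chains. In 10 chains the Poisson interval of the highest summit lay above those of all other summits, whereas in 53 the intervals of all summits shared a value. No chain had every summit reach the 75th percentile of fold, 42 had 1 such summit and 36 had none. In 27 chains with summits both at a start and away from one, the start summits had the lower median in 15 and the higher in 12. The highest summit was at either edge of its chain in 62 of 103 chains, and in the middle in 30 of the 74 chains of 3. In a chain of 3, 2 of the 3 summits are edges, so a majority at the edges follows from chain length and is not a separate result.

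**Figure D2:**
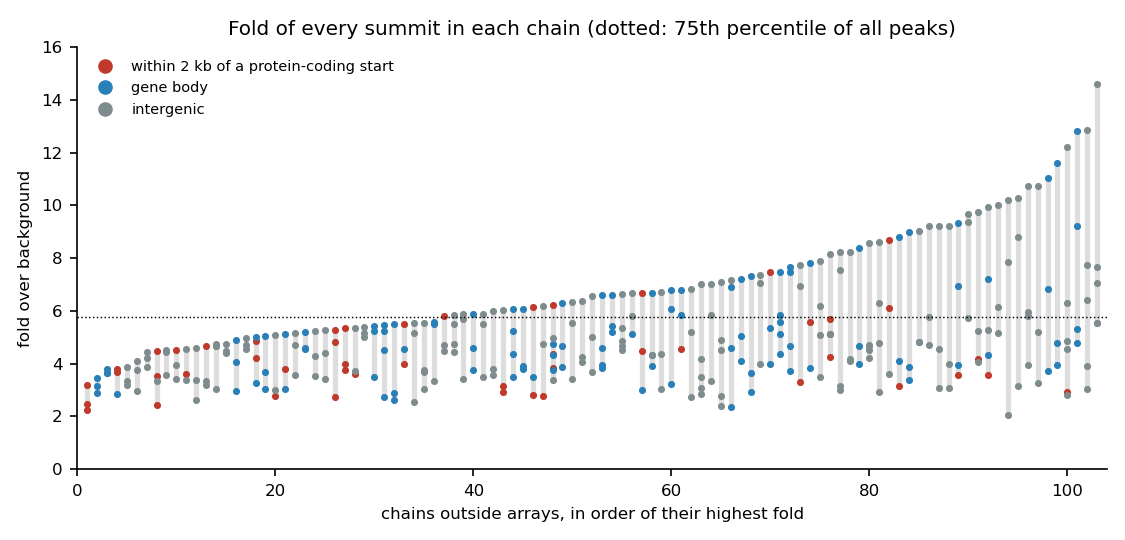
Fold over background of every summit (points, coloured by place) in the 103 chains outside arrays, ordered by their highest fold; bars join the lowest and highest summit and the dotted line is the 75th percentile of all peaks, 5.77. The lowest summits of most chains lie between 2 and 5 even where the highest reaches 14.6, and no chain lies wholly above the line.

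Chromosome 11 held 19 of the 103 chains, with 68 of its peaks outside arrays (19.2%), and chromosome 17 held 14, with 47 (22.8%). On the other chromosomes with such chains the share was 2.82% (chromosome 1) to 14.3% (chromosome 9). Chromosome 18 had no chain, and the single chains on X and Y were arrays. Over all chromosomes, chain peaks outside arrays were 9.53% of all peaks, array peaks included. Chromosome 11 had 368 peaks, the most of any, and chromosome 17 had 215. These shares were not adjusted for how densely peaks lie on a chromosome.

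The longest chain outside arrays crossed 3 genes of nuclear signalling. It had 8 summits over 44077 bp at chr11:98751012-98795089 and ran from Thra, a thyroid hormone receptor gene, through Nr1d1, which encodes the heme-binding clock repressor REV-ERBα, to Msl1, a scaffold of a histone H4 acetyltransferase complex. In order along the chromosome, the folds were 4.74 and 3.77 in Thra, 4.31, 6.23 and 4.36 at Nr1d1, 3.37 and 4.98 between Nr1d1 and Msl1, and 3.84 at Msl1. The highest, 6.23 (interval 4.67 to 8.15), lay 1555 bp inside the start of Nr1d1, and its interval overlapped those of the other 7. Summits stood 535 bp from the Nr1d1 start and 427 bp from the Msl1 start.

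**Figure D3:**
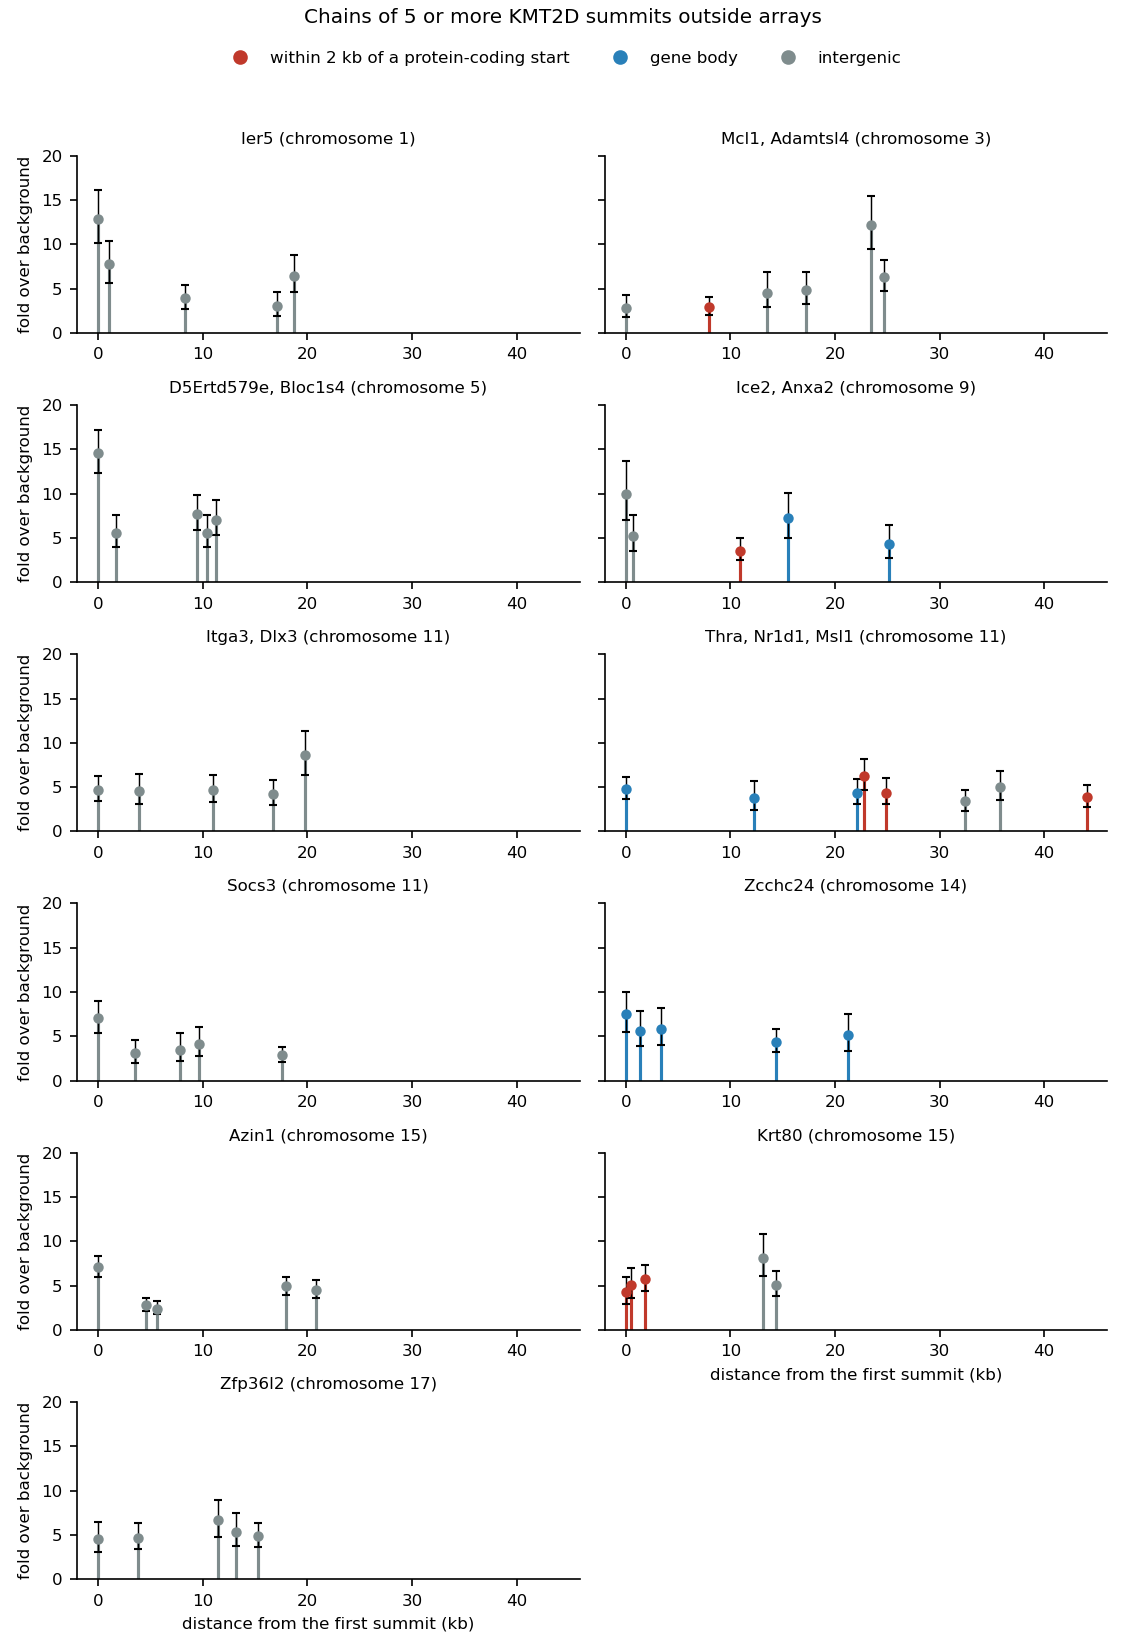
Fold over background (vertical axis) at each summit of the 11 chains of 5 or more summits outside arrays, against distance in kb from the first summit; error bars are 95% Poisson intervals of the fragment count and colours give the place. Thra, Nr1d1 and Msl1 share 8 summits of 3.37 to 6.23, while Ier5, Mcl1 with Adamtsl4, and D5Ertd579e with Bloc1s4 each have 1 summit above 12.

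Feedback inhibitors of cytokine and growth factor signalling formed the next group, from a list named for MAP kinase feedback that also held cytokine inhibitors. Of its 27 genes that matched, 5 were given to chains, beside 120 of 21774 protein-coding genes (0.551%). They were Dusp1, Dusp7, Lrig1 and the cytokine inhibitors Socs3 and Socs5. Of the 27, 11 had some peak in or out of chains, beside 11.6% of all protein-coding genes. A gene was given to a chain when it was the nearest gene to a summit or had its start within 2 kb of one. The lists were drawn up with results of these data known, so such counts are descriptions. Socs3, whose product blocks JAK kinases downstream of cytokine receptors, had 2 chains 13793 bp apart, together 8 summits over 43881 bp. The 5 summits of the distal chain, chr11:117932357-117949889, had folds of 7.02, 3.07, 3.48, 4.18 and 2.85 and lay 16190 to 33722 bp from the gene. In the chain at the gene, chr11:117963682-117976238, folds were 3.36, 3.59 and 4.55, with the middle summit 124 bp from the start. The highest Socs3 summit was thus the one farthest from the gene, with an interval of 5.37 to 9.02 that lay above that of the gene-start summit (2.61 to 4.83). At Socs5, a relative of Socs3, the 3 summits at chr17:87170379-87176088 had folds of 3.47, 5.50 and 5.89, at 32732 to 38441 bp from the gene.

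Dusp1 encodes a phosphatase that switches off p38, JNK and ERK kinases. Its chain lay 21638 to 25529 bp from the gene, at chr17:26530110-26534001, with folds of 3.08, 9.22 and 4.0. The middle summit (interval 7.13 to 11.7) stood above both neighbours. At Dusp7, an ERK phosphatase gene, folds were 2.99, 2.78 and 5.07 over chr9:106361405-106378212, with the lowest 596 bp from the start. Lrig1, a membrane protein that dampens receptor tyrosine kinases, had 4 summits inside its gene at chr6:94640456-94648280, with folds of 7.64, 7.49, 4.66 and 3.73.

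The list of immediate early and AP-1 genes gave a further group, with 5 of 44 members given to chains: Dusp1, Gadd45g, Ier5, Zfp36 and Zfp36l2. None of the 5 is an AP-1 gene. Some peak was found for 24 of the 44. Over all protein-coding genes the shares were 0.551% for chains and 11.6% for any peak. Ier5, an immediate early gene, had 5 summits, none at its start, over chr1:155075046-155093746. Folds there were 12.9, 7.73, 3.91, 3.02 and 6.42, at 24590, 23555, 16258, 7471 and 5890 bp from the start. The farthest was the highest, and its interval (10.1 to 16.1) overlapped only that of its neighbour (5.62 to 10.4). Gadd45g, a stress sensor gene, was the nearest gene to a chain 114448 to 127618 bp away, chr13:51962923-51976093, with folds of 5.75, 9.21 and 4.70.

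Zfp36 and Zfp36l2 encode related proteins that bind AU-rich elements and speed mRNA decay. Zfp36 shared a chain with Plekhg2 at chr7:28373035-28382116, with folds of 6.10 at the Plekhg2 start, 8.67 at 1932 bp from the Zfp36 start and 3.59 beyond it. The Plekhg2 summit also lay on the tRNA gene n-TIaat16, the only summit outside arrays within 500 bp of a small RNA gene. Zfp36l2 had 3 summits over 2079 bp at an annotated end of its gene, chr17:84186015-84188094, of the low folds 2.48, 3.20 and 2.22. A second chain for which it was the nearest gene began 100006 bp away, at chr17:84070749-84086009, with 5 summits of 4.53, 4.67, 6.63, 5.34 and 4.85. Each summit of the distant chain was higher than each at the gene, although several intervals overlapped. Still farther, 80121 bp on, came a chain nearest to Haao with folds of 7.06, 3.98 and 7.35.

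Of 26 genes for Kruppel-like and SP transcription factors, Klf4, Klf9 and Klf14 were given to chains, beside 0.551% of all protein-coding genes. Some peak was found for 10 of the 26, beside 11.6% of all. Klf9, a gene known for its response to glucocorticoid and thyroid hormone, had folds of 3.72, 5.34 and 3.61 at chr19:23134119-23142818, with the last summit 1592 bp from its start. Klf4 was named only as the nearest gene, 197992 to 203194 bp away, to 4 summits of 3.77, 3.69, 3.05 and 5.54 at chr4:55730467-55735669. Klf14 was likewise 123200 to 141570 bp from its chain at chr6:31082190-31100560, where folds were 9.21, 4.54 and 3.06. Nearness over such distances does not say which gene a region acts on.

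Cell survival genes had chains of different shape. Mcl1, an anti-apoptotic relative of BCL2, opened a chain of 6 summits that ended beside Adamtsl4, chr3:95650934-95675609. The folds were 2.81, 2.92, 4.55, 4.85, 12.2 and 6.30, with the second 160 bp from the Mcl1 start and the highest 1809 bp from the Adamtsl4 gene. The interval of the highest, 9.51 to 15.5, lay above those of the other 5. The pro-apoptotic genes Bmf and Bbc3 (Puma), named here after their values were seen, had 3 summits each: 5.83, 6.81 and 4.54 in Bmf, with the lowest nearest its start, and 3.78, 5.14 and 3.04 in Bbc3, with the first 55 bp from a start.

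Genes of the extracellular matrix and of mesenchymal cells gave 6 of 53 list members, beside 0.551% of all protein-coding genes: Anxa2, Col1a1, Col1a2, Snai1, Tgm2 and Timp2. Of the 53, 34 had some peak, beside 11.6% of all. Anxa2 encodes a calcium-dependent membrane-binding protein that also binds plasminogen at the cell surface. Its 5 summits at chr9:69442700-69467856 had folds of 9.94 and 5.26 at 10983 and 10276 bp before the start, 3.57 in the promoter window printed above, and 7.19 and 4.32 inside the gene. The summit on the AP-1 motif was thus the lowest of the 5. Timp2, an inhibitor of matrix metalloproteinases, had 3 summits 5891 to 9944 bp before its start, chr11:118361302-118365355, with folds of 9.36, 5.73 and 9.66. A median of 9.36 was the highest of any chain outside arrays.

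Both type I collagen genes had a chain outside the gene. At Col1a1, folds were 4.11, 3.76 and 2.98, at 7097 to 19511 bp from the gene (chr11:94916713-94929127). At Col1a2 they were 6.38, 4.08 and 4.25, at 73282 to 86310 bp (chr6:4419308-4432336). Tgm2, a transglutaminase that cross-links matrix proteins, held 4 summits in its gene body of 3.93, 4.60, 6.59 and 3.83 (chr2:158121764-158139786). Snai1, a repressor of epithelial genes, was 27665 bp from the nearest of 3 summits of 2.63, 3.36 and 4.60 (chr2:167570479-167576287). Folds in these last 4 chains ranged from 2.63 to 6.59.

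The TGF-β list gave 1 of 35 genes, Ltbp3, which stores latent TGF-β in the matrix, with folds of 3.16 at 1109 bp from its start and 4.11 and 8.78 inside the gene (chr19:5742009-5749640). The list of SRF targets and actin genes gave 1 of 38, the actin cross-linker Actn1, with 3.5, 4.36, 5.25 and 6.06 in its body (chr12:80220715-80230188). YAP and TEAD targets gave 1 of 28, Asap1, whose chain at chr15:64470926-64477333 was 87985 to 94392 bp away with folds of 4.29, 5.23 and 3.51. Circadian clock genes gave 1 of 24, Nr1d1. In the same order, 16, 20, 17 and 10 genes of these lists had some peak. None of 20 genes of H3K4 methyltransferase complexes, 40 of hypoxia and glycolysis, 40 neuronal markers, 28 neural progenitor markers or 30 replication-dependent histones was given to a chain outside arrays, although 6, 15, 3, 7 and 2 of them had some peak, beside 11.6% of all protein-coding genes. Over all 13 lists, 22 of 425 genes were given to such chains, beside 0.551% of all protein-coding genes. At so low a share, finding none in a list of 20 to 40 genes is no sign of absence. As a ChIP list measures no expression, the neuronal and neural progenitor markers do not test the identity of the cells.

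Plec encodes plectin, which links intermediate filaments to other structures, and its 4 summits inside the gene (chr15:76190333-76204270) had folds of 4.77, 9.20, 5.30 and 12.8. Krt80, a keratin gene, had 5 summits at chr15:101368671-101383051, 3 of 4.24, 5.12 and 5.71 at an annotated end of the gene and a pair of 8.14 and 5.12 at 11671 and 12889 bp from it. The region between Itga3, a laminin-binding integrin gene, and the homeobox gene Dlx3 held 5 summits, chr11:95085861-95105624, with folds of 4.69, 4.53, 4.67 and 4.21 and, at the Dlx3 side, 8.58. Sema3f, a secreted guidance cue, held 3 summits within 2239 bp of its body, chr9:107699525-107701764, with folds of 5.04, 7.21 and 4.08.

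The highest summit of any chain was intergenic. It had a fold of 14.6 (interval 12.3 to 17.1) from 146 fragments and lay 17242 bp from the start of D5Ertd579e, in a chain whose other 4 summits were 5.52, 7.65, 5.53 and 7.07 (chr5:36713263-36724514). On the far side lay Bloc1s4, a subunit of a complex for lysosome-related organelles, at least 22860 bp away. This chain and those of Ier5, Plec and Mcl1 were the 4 with a summit above 12.

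Further summits above 10 were in chains of 3 or 4. Cuedc1 held 4.78, 3.96 and 11.6 in its body (chr11:88165160-88181398). Eva1c held 6.83, 11 and 3.72 in its body (chr16:90882751-90897895). Near Sphk1, which makes sphingosine-1-phosphate, summits of 10.7, 5.19 and 3.27 lay 7865 to 12392 bp before the start (chr11:116518708-116523235). In these 3 chains the highest summit had 2.43, 1.62 and 2.07 times the fold of the next, and it was the last, the middle and the first.

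Cryba4, a lens crystallin gene, was only the nearest gene, 355494 bp or more away, to folds of 5.94, 3.93, 5.80 and 10.7 (chr5:111872370-111890998). Dnajb12, an endoplasmic reticulum co-chaperone gene, was followed by summits of 3.15, 8.79 and 10.3 (chr10:59899799-59909707), the last 260 bp from the start of the lncRNA gene Gm40673. A pair of chains with a summit above 10 fell outside the rule for naming and were added after their values were seen. Between Acot11 and Ssbp3 the folds were 6.14, 5.15 and 10.01 (chr4:106840144-106859675). Near Dhx40 the folds were 10.2, 2.05 and 7.85, and the lowest stood on a background of 38.5 fragments, the only one above 20 in the 103 chains.

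Among the other chains of 5 summits, Zcchc24 held 7.47, 5.58, 5.82, 4.37 and 5.11 in its body (chr14:25735439-25756660). Near Azin1, an inhibitor of antizyme that raises polyamine levels, folds were 7.09, 2.79, 2.41, 4.90 and 4.53 at 13711 to 34534 bp from the gene (chr15:38452896-38473719). Backgrounds there were 16.4 to 19.5 fragments, close to the limit of 20. Shortest of all was the chain at the polyubiquitin gene Ubb, 1345 bp at chr11:62550054-62551399, with folds of 4.83, 2.74 and 5.29 within 1117 bp of the start.

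Several chains lay at noncoding genes, named here after their values were seen. Neat1, the lncRNA that builds paraspeckles, had 3 summits of 6.35, 5.53 and 3.41, the first 460 bp from its start. At Lexis1, a lncRNA known for its role in cholesterol metabolism, folds of 4.99, 5.39 and 5.16 began 31 bp from its start, and the nearest protein-coding gene was the cholesterol exporter Abca1. Irf2bpl, a transcriptional coregulator gene, had a chain at its start of 4.19, 4.04, 5.22 and 9.74 and a second one 50282 bp away of 2.99, 7.56, 8.23 and 3.16, in which the third summit was that at Gm40491. In the chain at the Irf2bpl start the highest summit lay away from that start. The second chain was also given to Lrrc74a, and the closest protein-coding start was 50109 bp from its summits.

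MicroRNA genes lay in or within 2 kb of 4 chains outside arrays, and how many lay as near to other peaks was not counted. Those known for the widest expression were chosen and are printed as mature RNAs from RefSeq, with the seed, bases 2 to 8, in capitals. The seeds of these 4 differ, which is a description and not a result about the chains.
mmu-miR-22-3p: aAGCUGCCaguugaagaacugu
mmu-miR-99b-5p: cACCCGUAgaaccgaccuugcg
mmu-let-7e-5p: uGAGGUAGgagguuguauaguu
mmu-miR-125a-5p: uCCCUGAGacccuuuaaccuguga

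The miR-22 host gene, Mir22hg, had 4 summits of 5.84, 4.42, 5.48 and 4.75 at chr11:75458864-75463131, with the hairpin 585 bp beyond the last. The other 3 microRNAs form 1 cluster inside Spaca6, and the nearest summit, with a fold of 4.58, lay 3105 bp from the mature miR-99b-5p. The rest of that chain, chr17:17827089-17857587, had folds of 2.37, 6.92 and 7.17 and ran to Has1, a hyaluronan synthase gene. Mir1941 lay 148 bp from a Krt80 summit and Mir3109 lay 1141 bp from the Anxa2 summit of 7.19.

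Some chains were themselves neighbours. Within 100 kb, 8 groups of 2 chains each were found, including those of Socs3, Irf2bpl and the Zfp36l2 side of Haao described above. The others were 8 summits at Slc44a3 and 4930432M17Rik (folds 2.94 to 8.61), 6 at Med13l (3.34 to 7.02), 6 at Timp2 and C1qtnf1 (3.32 to 9.66), 6 at Dusp1 and Ergic1 (3.08 to 9.22) and 6 at Ltbp3 and Neat1 (3.16 to 8.78). The gap between the 2 chains was 12883 bp at Slc44a3 and 96300 bp between Ltbp3 and Neat1.

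The 19 arrays were set apart by background or by small RNA genes, so a difference in these is not a result. Median background in the small RNA chains was 6.53 fragments, close to the 6.61 of chain peaks outside arrays. At Rn4.5s, the gene of a small rodent RNA made by RNA polymerase III, 9 summits over chr6:47650811-47685312 were spaced 4227 to 4347 bp apart, a coefficient of variation of 0.881%. Their folds were 5.48 to 8.46 on backgrounds of 27.2 to 39.3 fragments, and 1 of the 9 lay on the annotated Rn4.5s gene. A second chain of 8 summits, chr6:47739948-47772018, had gaps of 4130 to 5557 bp, folds of 1.5 to 9.07 and backgrounds of 30.6 to 86.9. Median folds of the 2 chains, 7.73 and 6.40, were above the 4.66 of chain peaks outside arrays, on these higher backgrounds, and whether reads there were placed in the right copy was not tested.

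The 5S ribosomal RNA genes on chromosome 8 held the longest chain of all, 12 summits over 67906 bp at chr8:123550721-123618627. Each summit lay on a 5S gene, 12 of the 39 annotated there, and folds were 3.23 to 6.13 with backgrounds of 6.67 to 10.5. The genes were 1698 bp apart in the median, and each of the 11 gaps was within 3.06% of a whole multiple of that spacing. As every summit lay on a 5S gene, this follows from the gene spacing and is not a separate result.

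**Figure D4:**
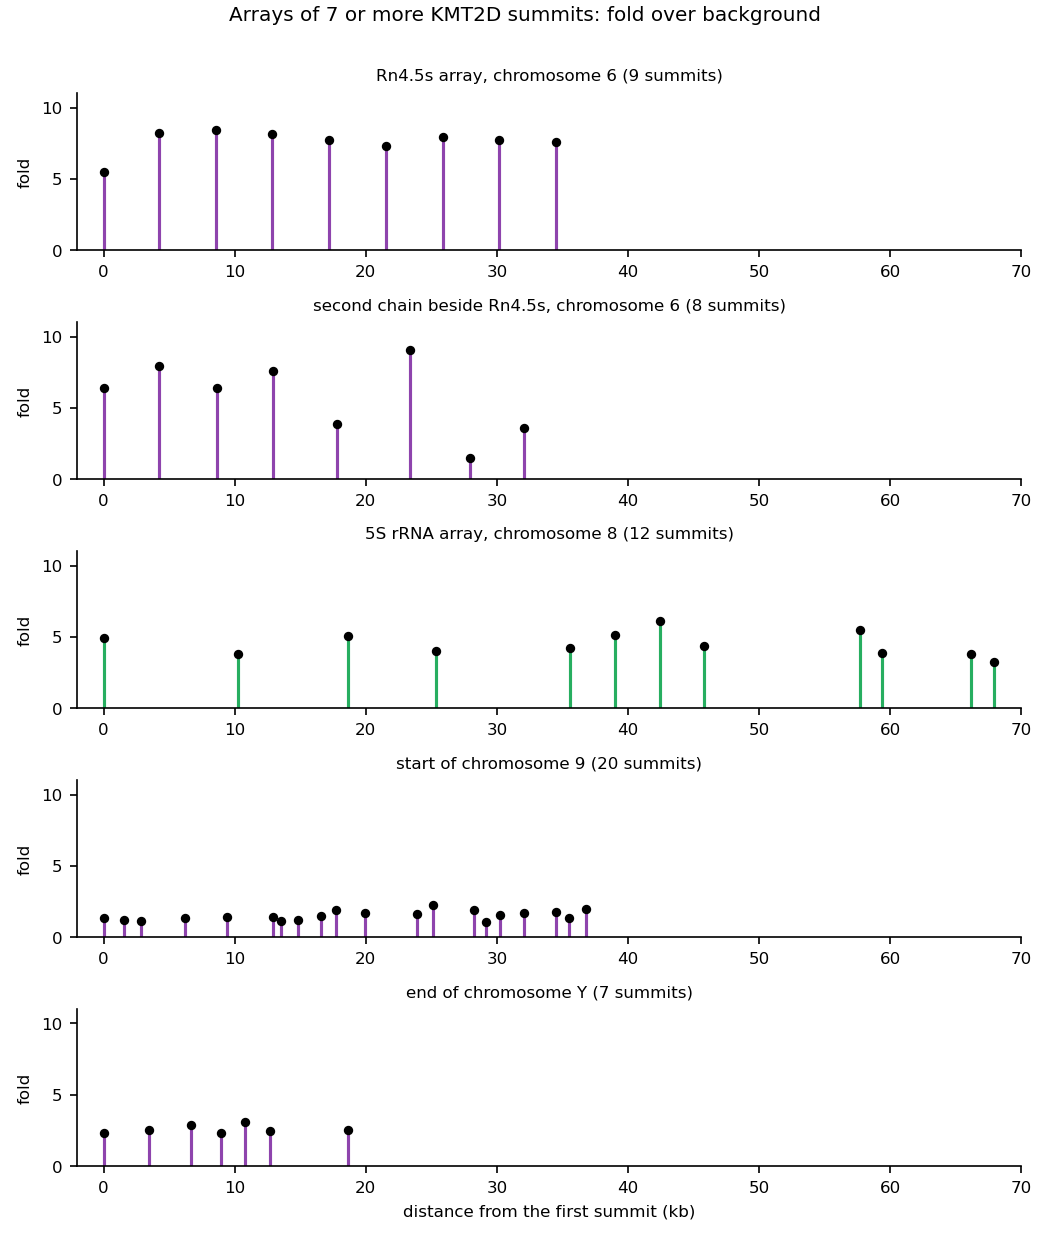
Fold over background at each summit against distance in kb from the first summit, in the 5 arrays of 7 or more summits. Summits at Rn4.5s are evenly spaced, 4227 to 4347 bp apart, those on 5S genes follow the 1698 bp spacing of the genes, and the 20 summits at the start of chromosome 9 have folds of 1.07 to 2.28.

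In 7 chains the summits lay at tRNA genes, which RNA polymerase III transcribes. They held some of the highest median folds: 10.3 near Shf on chromosome 2 (9.86, 11.3 and 10.3, each on a histidine tRNA gene), 9.39 near Hjv on chromosome 3 (5 summits of 7.21 to 11.2) and 8.54 near Zfp213 on chromosome 17 (5 summits of 6.83 to 9.92). The other 4 lay near Cfap126 on chromosome 1 (7.04 to 9.95), between Ctc1 and Aurkb (6.65 to 9.44) and between Per1 and Aloxe3 (3.07 to 9.89) on chromosome 11, and near Osbp on chromosome 19 (5.27 to 6.91). The clock gene Per1 was thus nearest only to a tRNA chain. Over all tRNA genes, 29 summits in chains had a median fold of 7.94 and 77 outside chains 7.47. Both medians were above 5.77, the 75th percentile of all peaks, although single summits in chains were as low as 3.07. A pair of snRNA chains, between Sirt4 and Pxn on chromosome 5 (2.61 to 3.99) and at Rnu12 beside Poldip3 on chromosome 15 (2.74 to 5.41), were lower.

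The other high-background chains had low folds. At the start of chromosome 9, 20 summits had folds of 1.07 to 2.28 on high backgrounds, which could be solved at 5 of them and were 2203 to 6582 fragments there. The chain of 3 on chromosome 14 near Gm2244 had 1.25 to 1.42, the 4 at the ribosomal RNA pseudogene Rn18s-rs5 on chromosome 17 had 1.31 to 1.44, and the 5 near Tmem267 on chromosome 13 had 1.34 to 2.46. At Camk2b, a neuronal kinase gene, 3 summits of 1.70, 1.80 and 2.52 stood on backgrounds of 82.6 to 131 fragments, while the remaining one, of 10.3, stood on 6.76. On X near Mid1 the 4 summits had 1.74 to 3.84, and on Y at the pseudogene Mid1-ps1 the 7 had 2.34 to 3.08. The median fold was 1.96 in the high-background chains and 6.74 in the small RNA chains.

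**Figure D5:**
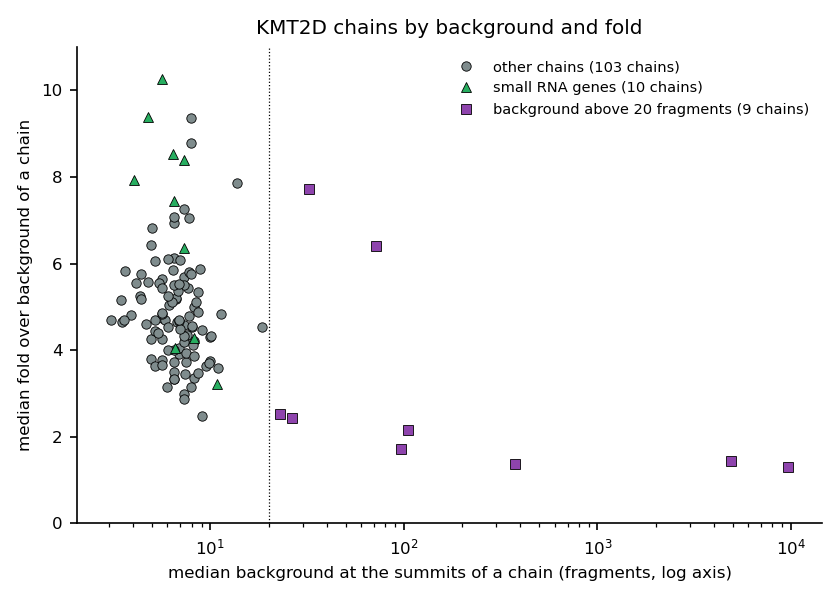
Median fold over background of each chain against the median background at its summits in fragments (log axis); the dotted line marks 20 fragments, and backgrounds of the chromosome 9 and 14 chains are approximate. The 103 other chains (circles) and 10 small RNA chains (triangles) lie left of the line, and 7 of the 9 high-background chains (squares) have medians below 3.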

How the data were processed

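KMT2D ChIP-seq of wild-type HT22 cells gave 1 ChIP library (antibody Millipore ABE1867) and 1 input library. Per the labels' protocols, nuclear lysates were sonicated and precleared, and NEBNext Ultra II reagents served for library preparation. Bowtie2, Picard, MACS2 and the build mm10 are named in the submitters' processing notes, but versions and settings were not given in the sources used here. In all, the authors deposited 1 peak list of the ChIP against the input. Per the file, it gives each peak's fold or ratio over background at the summit, the −log10 p-value, the −log10 q-value (lowest 1.32) and a score. The deposited score was not used.

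Positions are counted from 1. Summits at most 12.5 kb apart were chained, and chains of 3 or more kept. The members and the gene lists were chosen with earlier results of these data known. Fragment counts and backgrounds were solved from the deposited fold, (count + 1) over (background + 1), and the deposited p-value, a Poisson tail, within 0.001 in −log10 p. This succeeded for 3694 of 3738 peaks and for all 353 chain peaks outside arrays; the 18 unsolved chain peaks lay in arrays, where the closest whole count gave an approximate background, used only to set arrays apart and in the plot of background. Fold intervals are exact 95% Poisson intervals of the count with the background held fixed. Shares have Wilson intervals and medians order-statistic intervals; all cover counting error only.

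Genes came from RefSeq GRCm38.p6: 49595 of 49997 were kept, and 21774 are protein-coding. A start was known for 17492 of these (80.3%), and either gene end stood in for the others, so 37 of the 49 chain summits called start were at a known start. A chain was set apart where at least as many of its summits as not had a background above 20 fragments or a small RNA gene within 500 bp. Chains were named when they had 5 or more summits, the highest summits (10 chains) or medians (5 chains), the extremes of length (3 each), were set apart, or were nearest to a listed gene. No test was run, as there was 1 library of each kind. Chaining and count recovery were tested on simulated data. Motif counts around summits, which need a genome sequence, were not run. Python 3.11.15, numpy 2.4.6, pandas 2.3.3, scipy 1.17.1 and matplotlib 3.10.9 were used.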

Additional observations from a re-analysis of the deposited data

Results flagged for a closer look

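Outside the chromosomes studied, 27 further summits chained on 1 unplaced sequence, out of 32 peaks on all unplaced sequences. This is signal in data that the comparisons above do not use. Folds of these 27 were 1.13 to 2.05, with a median of 1.61. Their backgrounds could be solved at 5 summits and were 146 to 2974 fragments there, above the limit of 20 fragments that set arrays apart. No chain outside arrays had a median fold as low.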

How the results depend on the processing

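Values here are over all 122 chains, arrays included. The number of chains and of peaks in them followed the rule: 122 chains with 463 peaks became 58 with 216 at 5 kb, 206 with 785 at 25 kb, and 42 with 223 when 4 summits were asked for. Restricted to the peaks whose −log10 q reached the list's median, 8.21, 47 chains with 189 peaks were left, and the difference in median fold, chain minus other peaks, turned from 0.132 to -0.525. In that setting 42.3% of chain peaks reached the 75th percentile of fold, against 49.8% of other peaks (29.4% of chain peaks otherwise). Start shares of chain peaks, 13.6% over all chains, were 8.99% in that setting, 10.5% with summits within 1 kb counted once, 6.70% with a window of 1 kb and 22.7% with one of 5 kb; those of other peaks were 17.8% with the stricter q, 24.5% at 1 kb and 36.0% at 5 kb, above the chains in each. The gene body share was 27.4% with and 32.0% without arrays. The background difference of 0.865 fragments became 1.54 at 5 kb, 1.70 with 4 summits, 1.38 with the stricter q and 0.556 without arrays. The other 57 recomputed values stayed within 1.5 times of the count or within the interval of the main value. Starts taken at either gene end, and leaving out the chain of most summits, were chosen after seeing the data. Motifs around summits, in windows of either planned size, were not run, since no genome sequence was used here. In 53 of 103 chains the intervals of all summits shared a value, and whether more reads would separate them was not tested.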

Other observations

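Chains beside genes of secreted factors, transcription factors and adhesion were not described above; the ones named here were chosen after their values were seen, and no test was made. Intergenic chains lay nearest to Lif, a cytokine of the interleukin 6 family (folds 6.71, 4.35 and 3.04), and to Irf1, an interferon-responsive factor (4.99, 6.57 and 3.66). A chain nearest to Cebpb, a factor of acute-phase and fat cell genes, had folds of 5.87, 5.68 and 3.43, at 76483 to 100699 bp from its start. Chains inside genes included Il34 (4.55, 5.20 and 4.57), a ligand of the macrophage receptor CSF1R, the secreted protease gene Htra1 (6.59, 5.21 and 5.44) and the procollagen protease gene Adamts2 (3.23, 6.06 and 6.80). Among adhesion genes, Itgb5, an integrin gene, had 2.91, 7.34 and 3.62, and Cdh1, the E-cadherin gene, had 2.90, 3.44 and 3.14. In 1 chain the 3 summits lay at an end of 3 genes: 5.33 at Cd63, 3.74 at Bloc1s1 and 4.0 at Itga7. Dlgap1, a gene of a postsynaptic scaffold protein, held 5.47, 4.53, 2.72 and 5.23 inside its body.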
